A study of Arabidopsis thaliana with 12 samples.

Results

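The comparison described here is the difference of the *Pst hrcC*- response between 2 *Arabidopsis thaliana* lines, wild type Col-0 (WT) and *linc1-1*, gene by gene. *Pst hrcC*- is a *hrcC* mutant of *Pseudomonas syringae* pv. *tomato* DC3000 with a defective type III secretion apparatus, so that it presents bacterial surface patterns to the plant but delivers no effectors. *linc1-1* carries a T-DNA inside *LINC1* (AT1G67230), whose product is a lamin-like coiled-coil protein of the plant nucleus, and it represents a single mutant allele. The 4 groups were WT mock, WT *Pst hrcC*-, *linc1-1* mock and *linc1-1* *Pst hrcC*-, each of 3 libraries from whole seedlings 14 days old, and the treated seedlings had been sprayed with bacteria at an OD600 of 0.002 and kept for 24 h. The study's methods call the libraries of a group biological replicates, taken from independent repeats of the experiment. Expression is given as FPKM, fragments scaled by transcript length and by the mapped fragments of the library, and the response of a line is its mean log2(FPKM + 1) after *Pst hrcC*- minus its mean in mock. The difference of the responses is the *linc1-1* response minus the WT response, so it is above 0 where the response was larger, or less negative, in *linc1-1*. All 16677 genes whose FPKM averaged 1 or more across the 12 libraries, of 27371 in the files, were members of the comparison.

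Recognition of bacterial patterns by surface receptors such as FLS2 starts pattern-triggered immunity (PTI), a burst of signaling through MAP kinases and WRKY transcription factors. Later the output is shaped by hormones, among them jasmonic acid (JA), ethylene (ET) and salicylic acid (SA), and Brassicaceae make glucosinolates (GS), sulfur-rich defence compounds derived from methionine (aliphatic GS) or tryptophan (indole GS). In the JA pathway, JAZ repressors hold back MYC factors until the hormone is perceived. The MYC branch then activates wound genes such as *VSP2*, and the ERF branch activates antimicrobial defensins such as *PDF1.2*. LINC proteins line the nuclear periphery, and the comparison asks whether a line without *LINC1* responds differently.

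In no gene was the difference of the responses called by limma with the limits of 0.05 on the adjusted p and 1.5 on the fold (0 of 16677 genes, 0%). The smallest adjusted p was 0.99954. With these limits on the unadjusted p and the fold, 230 genes had a larger response in *linc1-1* (1.38% of those tested) and 102 a smaller one (0.612%). An unadjusted p under 0.05 with no fold limit was found in 381 genes, 2.28% of those tested. This is below the share of 0.05 that would fall there with no difference in any gene. Passing at unadjusted p thus does not by itself show a different response. In 168 of the 230 genes the fitted response was below 0 in WT and above 0 in *linc1-1*, in 50 it was above 0 in both lines and in 11 below 0 in both. In 84 of the 102 genes it was above 0 in WT and below 0 in *linc1-1*, and in 17 it was above 0 in both lines. In the remaining gene of each set every WT library was listed at 0. Since the genes were chosen by the difference of these responses, opposite signs follow in part from the choice. With the same limits on the unadjusted p and fold, the response itself passed in WT in 67 of the 230 genes and in *linc1-1* in 79. Of the 102 genes it passed in 47 in WT and in 16 in *linc1-1*. The responses are also said not to overlap where every pairing of a treated with a mock library of *linc1-1* gave a larger, or a smaller, value than every such pairing of WT. This held for 134 genes in the larger direction (0.804%) and for 44 in the smaller direction (0.264%).

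The precision of the comparison was limited. The median SE of the difference was 0.34 on the log2 scale, and its 95% interval reached a median of 0.75 to either side. For 8296 genes (49.7%) this interval lay within 2-fold either way, and for 1056 (6.33%) within 1.5-fold. For the other genes the interval did not exclude a 2-fold difference.

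**Figure D1:**
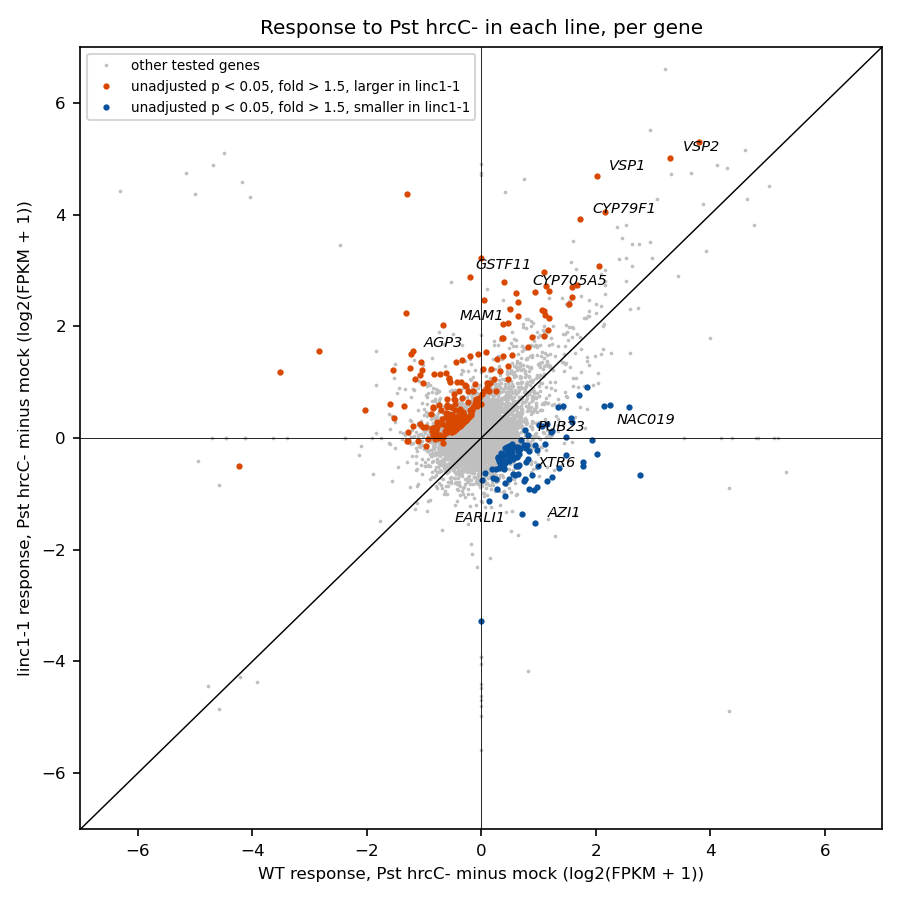
Response of each tested gene in WT (horizontal axis) and in *linc1-1* (vertical axis), both as *Pst hrcC*- minus mock in log2(FPKM + 1), with the line of equal responses. Orange points are the 230 genes with a larger and blue points the 102 genes with a smaller response in *linc1-1* at unadjusted p, and 10 genes lie outside the axes. Most orange points sit near the centre, left of 0 and above 0, and *VSP1*, *VSP2* and *CYP79F1* sit high in both lines.

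Scaling and the WT replicate 1 libraries move this picture. The files hold no counts, so the depth of each library is unknown, and no scaling was applied between libraries. The median difference over all genes was 0.12, with 11185 genes (67.1%) above 0, and with size factors it was −0.0060. With that scaling the larger to smaller split at unadjusted p went from 230 to 102 (69.3% larger) to 127 to 187 (40.4% larger), and with quantile normalization to 120 to 215 (35.8% larger). List medians are to be read against this 0.12, and counts of genes above 0 against the 67.1%. Counts at unadjusted p are to be read against 1.38% larger and 0.612% smaller. List medians with size factors are given where they differ by more than 1.5 times, and are to be read against the −0.0060. Their shift includes that of all genes. The median of JAZ repressors, for example, was 0.19 above that of all genes without scaling. With size factors it was 0.18, to be read against −0.0060. WT mock replicate 1 and WT *Pst hrcC*- replicate 1 differed from the other WT libraries in many of the lists below. With both left out, 344 genes were larger and 177 smaller, of which 110 and 58 were among the 230 and 102. All 230 and all 102 kept the sign of their difference in that fit, and in each of the other alternatives in which they were tested. The targeted gene was low in all 6 *linc1-1* libraries (2.09 to 3.76 FPKM, against 17.2 to 28.3 in WT), and its difference of the responses was 0.28 (SE 0.29). Of the reference genes, *ACT2* (actin) had a difference of −0.14 (SE 0.36) and *UBQ10* (polyubiquitin) of −0.34 (SE 0.36).

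The gene with the smallest p was *VSP1* (AT5G24780, chromosome 5, 8507590 to 8509201 in TAIR10.1), a vegetative storage protein gene of the MYC branch. It stood at 7.29, 20.9 and 13.8 FPKM in WT mock replicates 1, 2 and 3, and at 57.4, 44.0 and 67.3 in WT *Pst hrcC*-. In *linc1-1* it stood at 7.61, 9.29 and 4.83 FPKM in mock and at 157.3, 186.1 and 296.1 after *Pst hrcC*-. All 3 treated *linc1-1* libraries lay above all treated WT libraries, while the mock groups overlapped. Its log2 response of 2.02 in WT compared with 4.68 in *linc1-1*, a difference of 2.67 (SE 0.53, 95% interval 1.51 to 3.82, unadjusted p = 0.000358, adjusted p = 0.99954 from limma). Leaving out any library gave 2.34 to 3.04.

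*VSP2* (AT5G24770), the neighbouring copy with a similar sequence, gave 18.4, 5.60 and 6.67 FPKM in WT mock and 100.2, 69.9 and 129.6 in treated WT. In *linc1-1* it gave 7.30, 10.3 and 9.37 FPKM in mock and 249.0, 323.5 and 407.9 after *Pst hrcC*-. Again the treated *linc1-1* libraries were the highest of the 12, and the responses of the lines did not overlap. The difference was 1.72 (SE 0.55, unadjusted p = 0.00955). Reads of the 2 copies may be shared between them, so their values are not independent. The 300 bases before the annotated start of each gene are shown because the pair moved together. They were read from TAIR10.1 (RefSeq), where both genes lie on the minus strand, at chr5:8509202-8509501 for *VSP1* and at chr5:8502225-8502524 for *VSP2*. Capitals mark the W-box core TTGAC on either strand (GTCAA when read on the strand shown), to which WRKY factors bind. The G-box CACGTG, to which MYC factors bind, has no exact match in either window, and variants of it were not searched.
VSP1: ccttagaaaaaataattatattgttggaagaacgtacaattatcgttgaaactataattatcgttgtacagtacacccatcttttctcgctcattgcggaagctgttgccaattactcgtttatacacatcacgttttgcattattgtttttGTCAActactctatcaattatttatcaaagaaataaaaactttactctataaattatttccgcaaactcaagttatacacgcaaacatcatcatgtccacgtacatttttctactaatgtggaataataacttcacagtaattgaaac
VSP2: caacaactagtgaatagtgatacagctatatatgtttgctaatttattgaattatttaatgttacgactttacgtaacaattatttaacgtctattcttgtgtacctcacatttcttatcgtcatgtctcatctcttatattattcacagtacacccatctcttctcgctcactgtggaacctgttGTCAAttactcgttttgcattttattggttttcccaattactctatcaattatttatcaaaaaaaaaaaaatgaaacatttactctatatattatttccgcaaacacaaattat
Both windows hold 1 W-box core. Among the 16511 tested genes with such a window, 50.1% held a W-box core and 7.87% a G-box.

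**Figure D2:**
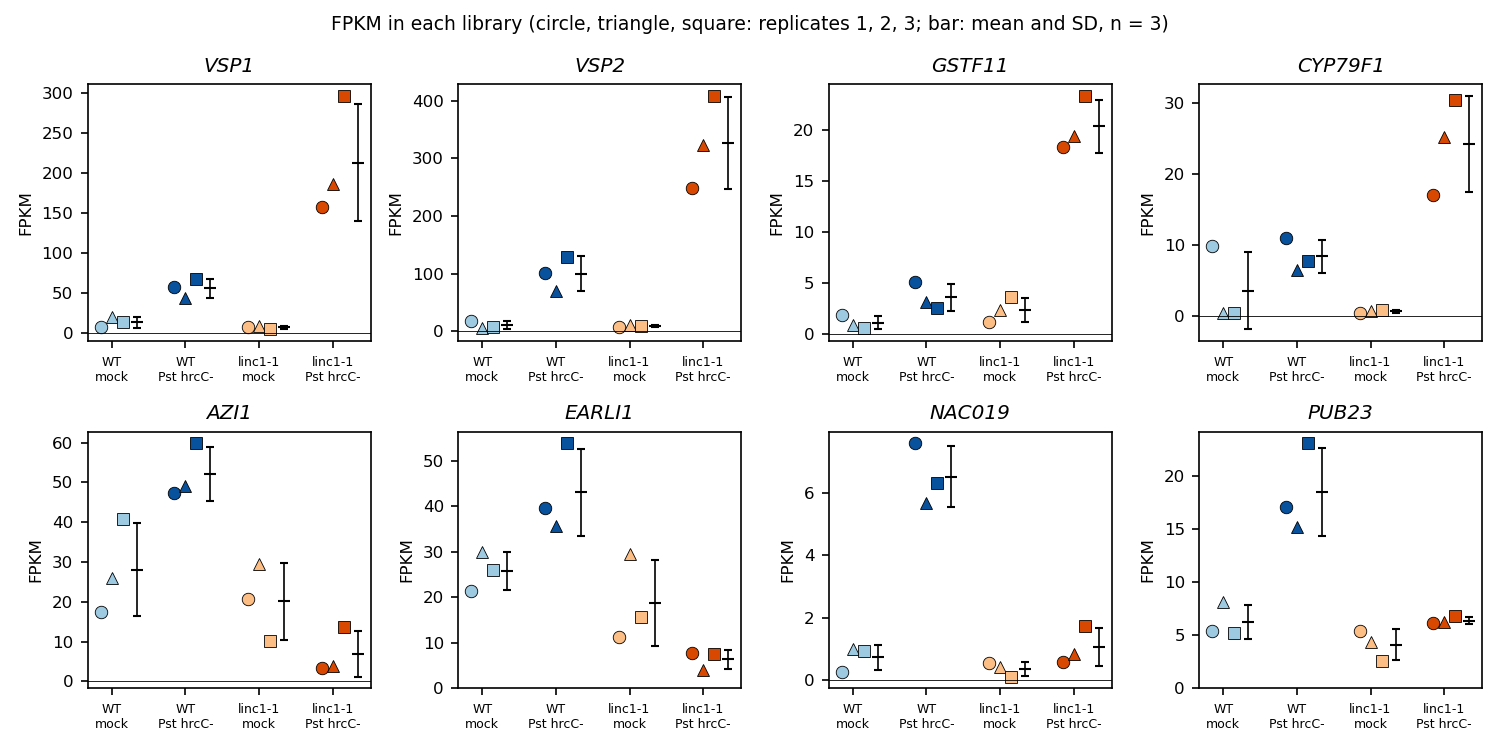
FPKM in each of the 12 libraries for 8 genes, by group on the horizontal axis, with replicates 1, 2 and 3 as circle, triangle and square and the mean with SD (n = 3) as a bar. The top row shows genes with a larger and the bottom row genes with a smaller response in *linc1-1*. In the top row the treated *linc1-1* libraries are the highest, and in the bottom row the treated WT libraries are.

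The other JA genes did not follow the *VSP* pair in a body. Of the 12 tested MYC-branch genes, 5 had a difference above 0 and 7 below 0, with a median of −0.29. At unadjusted p, *VSP1* and *VSP2* were larger and *NAC019* was smaller, against 1.38% larger and 0.612% smaller over all tested genes. *NAC019* (AT1G52890), a NAC transcription factor gene downstream of MYC2, had the smallest p of all genes in the smaller direction. It stood at 0.261, 0.996 and 0.917 FPKM in WT mock and at 7.61, 5.68 and 6.33 in treated WT. In *linc1-1* it stood at 0.525, 0.403 and 0.0997 FPKM in mock and at 0.571, 0.842 and 1.73 after *Pst hrcC*-. The 3 treated WT libraries stood apart from the other 9. The difference was −1.57 (SE 0.35, 95% interval −2.34 to −0.79, unadjusted p = 0.000996). The median of the MYC branch was −0.44 with size factors and 0.063 without both WT replicate 1 libraries, and its sign changed in 5 of 24 alternatives. It was 0.076 without WT mock replicate 1 alone and −0.044 without *linc1-1* *Pst hrcC*- replicate 1.

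JA biosynthesis genes had a difference above 0 in 11 of 13 cases, with a median of 0.55 against 0.12 over all genes, 0.38 with size factors and 0.36 without WT mock replicate 1 or without *linc1-1* *Pst hrcC*- replicate 3. *AOC4* (AT1G13280), 1 of 4 allene oxide cyclase genes, was the only member larger at unadjusted p, against 1.38% of all tested genes. Its FPKM values were 15.9, 16.6 and 14.1 in WT mock, 22.3, 17.7 and 26.2 in treated WT, 12.9, 12.5 and 15.4 in *linc1-1* mock and 26.7, 28.5 and 33.3 in treated *linc1-1*. The treated *linc1-1* values exceeded the treated WT values, and the difference was 0.59 (SE 0.25, unadjusted p = 0.0396). *AOC2*, *AOC1* and *AOC3* had differences of 1.29 (SE 0.83), 1.07 (SE 0.58) and 0.97 (SE 0.60). *LOX2*, the lipoxygenase of the first step, varied widely, with 134.0 to 306.2 FPKM in treated WT and 153.2 to 550.5 in treated *linc1-1*, and its difference of 0.55 (SE 1.08) was smaller than its error.

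Of the 11 tested JAZ repressor genes, 9 had a difference above 0 (median 0.31), and none passed at unadjusted p. The median was 0.18 with size factors and 0.061 without *linc1-1* *Pst hrcC*- replicate 3. *JAZ9* had the smallest p, with a log2 response of 2.17 in WT and 3.01 in *linc1-1* (difference 0.84, SE 0.51). The master factor *MYC2* had 0.58 (SE 0.69), and the 8 perception and bHLH genes had a median of 0.016, whose sign changed in 9 of 24 alternatives (−0.13 with size factors). Among genes that break down JA, 4 of 9 lay above 0, with a median of −0.051 whose sign also changed in 9 of 24 alternatives. It was −0.20 with size factors, 0.18 without both WT replicate 1 libraries, 0.15 without WT mock replicate 1 alone and −0.29 without WT mock replicate 2. *CYP94C1*, which oxidizes the active hormone, stood at 0.646, 0.960 and 0.797 FPKM in WT mock and 3.21, 5.52 and 6.41 in treated WT, and at 0.476, 0.798 and 0.345 in *linc1-1* mock and 1.02, 1.13 and 3.05 in treated *linc1-1*. The treated WT libraries were the highest, and the difference was −0.95 (SE 0.40, unadjusted p = 0.0388).

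*JAO4* (AT2G38240), a jasmonate oxidase gene, differed by −2.201 (SE 1.32) over all libraries. Treated WT stood at 27.5, 24.5 and 18.1 FPKM and treated *linc1-1* at 0.341, 0.132 and 26.7, with all mock libraries under 1 FPKM. The third *linc1-1* replicate was thus within the WT range while the first and second were near mock. Without that library the difference was −3.70 (SE 0.37, adjusted p = 0.0134 from limma), and *JAO4* was then called. This call rests on leaving out the library that differed from the rest of its group. The adjusted p does not account for the other fits with a library left out.

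In the ERF branch, 7 of 8 genes had a difference above 0, with a median of 0.93 and a median SE of 1.41. The median was 2.39 without both WT replicate 1 libraries, and with single libraries left out it ran from 0.28 (without WT *Pst hrcC*- replicate 3) to 1.91 (without WT *Pst hrcC*- replicate 1). The defensin *PDF1.2c* had the largest difference of these, 3.39 (SE 1.55, 95% interval −0.020 to 6.81). It stood at 264.7, 21.6 and 5.80 FPKM in treated WT and at 142.5, 120.6 and 84.4 in treated *linc1-1*. The mock values were 0.109, 5.99 and 5.73 in WT and 0.0832, 0.511 and 0 in *linc1-1*. The treated *linc1-1* libraries were close together, whereas WT replicate 1 lay above them and the other WT libraries below. Without both WT replicate 1 libraries the difference was 5.74 (adjusted p = 0.110). *PDF1.2a* (2.56, SE 1.68) and *PDF1.2b* (1.41, SE 1.69) are near-identical copies whose reads may be shared. The regulator *ORA59* differed by 0.18 (SE 0.52) and the chitinase gene *PR3* by 0.45 (SE 0.55).

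Aliphatic GS genes were the list with the most members at unadjusted p, and also the list with the most members tested. All 25 tested members had a difference above 0 and above the median of all genes, with a median of 0.80. Larger at unadjusted p were 5 of them (*CYP79F1*, *GSTF11*, *MAM1*, *FMOGS-OX3* and *FMOGS-OX1*), against 1.38% of all tested genes. These last 2 were named after their values were seen. The median response of the list was 0.64 in WT and 1.69 in *linc1-1*. *GSTF11* (AT3G03190), a glutathione transferase gene of the core pathway, stood at 1.84, 0.896 and 0.568 FPKM in WT mock and 5.06, 3.08 and 2.59 in treated WT. In *linc1-1* it stood at 1.202, 2.31 and 3.60 FPKM in mock and 18.4, 19.4 and 23.4 after *Pst hrcC*-. The treated *linc1-1* libraries were far above all others, the responses of the lines did not overlap, and the difference was 1.59 (SE 0.43, 95% interval 0.65 to 2.53, unadjusted p = 0.00340).

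*CYP79F1* (AT1G16410), which starts the core pathway from chain-elongated methionine and has a near copy in *CYP79F2*, was listed at 9.86, 0.461 and 0.377 FPKM in WT mock and at 11.0, 6.55 and 7.69 in treated WT. In *linc1-1* it was at 0.372, 0.665 and 0.882 FPKM in mock and at 17.0, 25.3 and 30.4 after *Pst hrcC*-. WT mock replicate 1 was as high as the treated WT libraries. The difference was 2.196 (SE 0.90, unadjusted p = 0.0322), and 1.22 to 2.71 with a library left out. *MAM1*, of the chain elongation step, had 1.54 (SE 0.59), and 0.74 without both WT replicate 1 libraries. *BCAT4* had 1.37 (SE 0.71). The regulators *MYB28* and *MYB29* had 0.17 (SE 0.36) and 0.82 (SE 0.71). *SULTR2;1*, a sulfate transporter gene, had 1.203 (SE 0.48), and 0.66 without both WT replicate 1 libraries.

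The size of the aliphatic GS difference depended on WT mock replicate 1. The mean log2 level of the list was 3.32 in that library and 1.81 and 1.69 in the other WT mock libraries, and 2.24 to 2.68 in *linc1-1* mock. After *Pst hrcC*- it was 3.74, 2.52 and 2.64 in WT and 3.81, 4.19 and 4.15 in *linc1-1*. The treated *linc1-1* libraries were thus above all others, by a small margin over treated WT replicate 1. The median difference was 0.25 without WT mock replicate 1, 1.23 without WT *Pst hrcC*- replicate 1, and 0.71 without both. For indole GS, 13 of 19 genes were above 0. Their median was 0.18, 0.028 with size factors, and 0.027 and 0.37 without replicates 2 and 1 of WT *Pst hrcC*-. *CYP81F3*, a modifying enzyme, had 1.23 (SE 0.48, unadjusted p = 0.0272) at 0.512 to 3.23 FPKM.

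**Figure D3:**
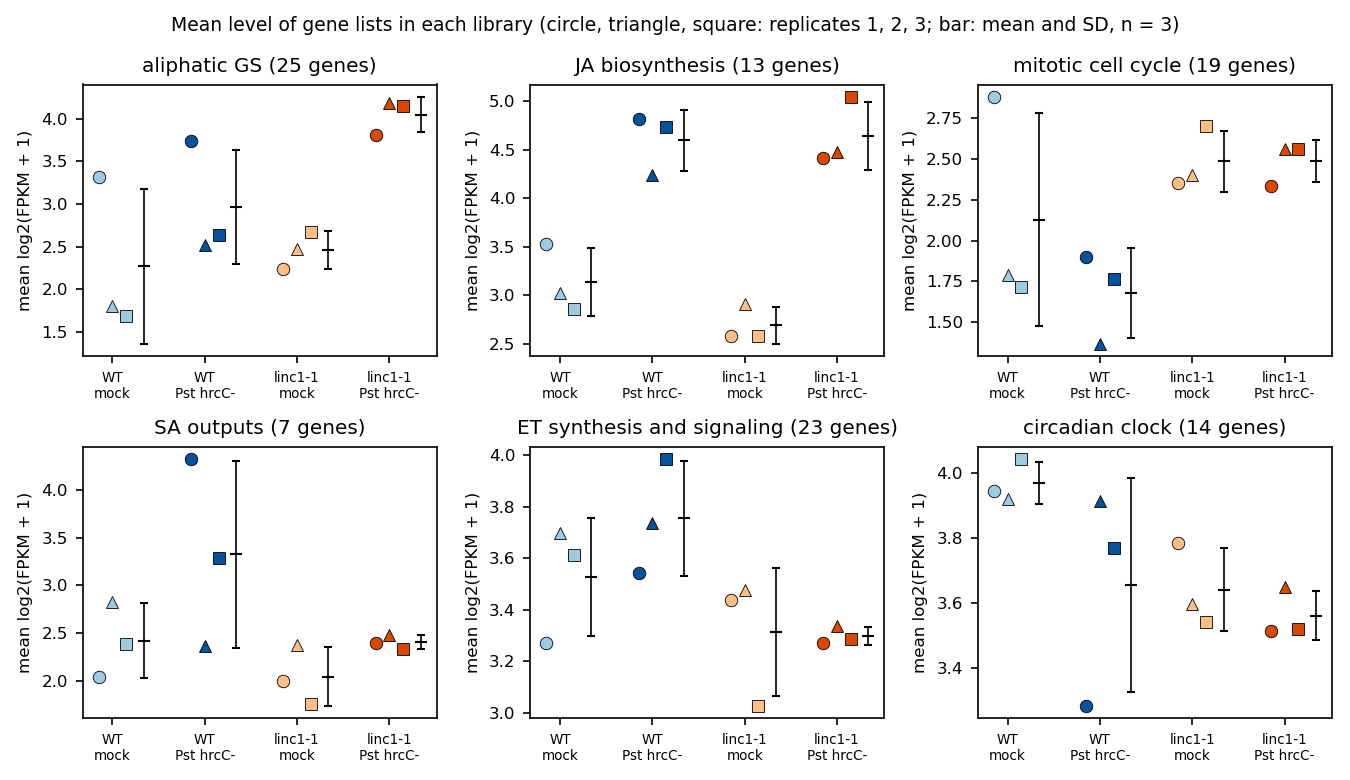
Mean log2(FPKM + 1) over the tested members of 6 gene lists in each library, by group, with replicates 1, 2 and 3 as circle, triangle and square and the group mean with SD (n = 3) as a bar. For aliphatic GS the treated *linc1-1* libraries are the highest. For SA outputs WT *Pst hrcC*- replicate 1 stands at 4.32 against 2.34 to 2.48 in treated *linc1-1*, and for mitotic genes WT mock replicate 1 stands at 2.88.

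Among the smaller responses, *AZI1* and *EARLI1* stood out. *AZI1* (AT4G12470) encodes a lipid transfer protein-like factor of systemic immunity, and *EARLI1* (AT4G12480) is its tandem neighbour on chromosome 4. *AZI1* was at 17.5, 26.1 and 40.7 FPKM in WT mock and 47.3, 49.0 and 59.8 in treated WT, and at 20.6, 29.4 and 10.2 in *linc1-1* mock and 3.31, 3.95 and 13.6 in treated *linc1-1*. The treated groups did not overlap, but mock and treated *linc1-1* did, and so did the responses of the lines. The fitted responses of *AZI1* had opposite signs. Its log2 response was 0.94 in WT but −1.52 in *linc1-1*, with a difference of −2.46 (SE 0.69, 95% interval −3.98 to −0.94, unadjusted p = 0.00450).

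*EARLI1* was at 21.5, 29.9 and 26.0 FPKM in WT mock, 39.7, 35.6 and 53.9 in treated WT, 11.3, 29.4 and 15.6 in *linc1-1* mock and 7.74, 3.94 and 7.50 in treated *linc1-1*. Every treated *linc1-1* library was lower than every other library, and the responses did not overlap. The difference was −2.07 (SE 0.48, unadjusted p = 0.00117), and −2.36 to −1.70 with a library left out. The next 2 genes of the cluster, AT4G12490 and AT4G12500, were looked up after these values were seen and differed by −1.97 (SE 0.55) and −1.26 (SE 0.87). The 4 genes are similar in sequence, so reads may be shared among them. The 300 bases before *AZI1* (chr4:7401952-7402251) and *EARLI1* (chr4:7406995-7407294), both on the minus strand of TAIR10.1 (RefSeq), are shown for the same reason as those of the *VSP* pair, with the same capitals.
AZI1: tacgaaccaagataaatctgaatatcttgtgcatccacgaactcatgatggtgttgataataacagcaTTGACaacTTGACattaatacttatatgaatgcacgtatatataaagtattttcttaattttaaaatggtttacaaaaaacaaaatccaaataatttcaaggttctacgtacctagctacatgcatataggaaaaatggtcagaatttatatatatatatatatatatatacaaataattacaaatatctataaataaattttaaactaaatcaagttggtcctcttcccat
EARLI1: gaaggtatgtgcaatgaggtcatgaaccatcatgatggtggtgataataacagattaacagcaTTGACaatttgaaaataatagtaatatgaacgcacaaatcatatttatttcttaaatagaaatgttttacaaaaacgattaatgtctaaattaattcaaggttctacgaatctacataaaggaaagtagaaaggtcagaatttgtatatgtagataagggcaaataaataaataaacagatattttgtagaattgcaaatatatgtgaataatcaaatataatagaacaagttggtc
The window of *AZI1* holds 2 W-box cores and that of *EARLI1* holds 1, and neither holds a G-box.

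Further genes with a smaller response had other roles. *XTR6* (AT4G25810), a xyloglucan-modifying enzyme gene, was at 17.0, 13.7 and 8.48 FPKM in WT mock and 21.7, 25.5 and 19.2 in treated WT, and at 6.83, 5.40 and 2.07 in *linc1-1* mock and 2.76, 1.04 and 3.35 in treated *linc1-1*. Every *linc1-1* library was below every WT library. Its difference was −1.50 (SE 0.54). *ACS7*, an ethylene synthesis gene, was at 0.460, 1.24 and 0.884 FPKM in WT mock, 1.68, 2.08 and 2.51 in treated WT, 1.76, 1.88 and 0.288 in *linc1-1* mock and 0.0432, 0.358 and 0.480 in treated *linc1-1*. Its level was higher in treated than mock WT and, but for *linc1-1* mock replicate 3, lower in treated than mock *linc1-1*. Its difference was −1.51 (SE 0.43, unadjusted p = 0.00494).

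*HR4*, an RPW8-like resistance gene homolog, had −1.49 (SE 0.66), *CYCP2;1*, a P-type cyclin gene, −1.23 (SE 0.45) and *RPT2*, a phototropism gene, −1.13 (SE 0.47). Without both WT replicate 1 libraries *HR4* had −0.96 and *CYCP2;1* −0.78. In *RPT2*, WT *Pst hrcC*- replicate 1 stood at 76.3 FPKM and the other treated WT libraries at 30.6 and 26.5, and the difference was −0.58 without both WT replicate 1 libraries. *PMAT1*, *CYP706A5* and *PTF1* had −0.87, −0.83 and −0.78.

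Of 24 tested PTI genes, 10 had a difference above 0 and 14 below 0 (median −0.11). At unadjusted p 1 was smaller, against 0.612% of all tested genes. The median was −0.24 with size factors and −0.0042 without WT *Pst hrcC*- replicate 3. This was *PUB23*, an E3 ubiquitin ligase gene that dampens PTI, at 5.42, 8.12 and 5.24 FPKM in WT mock, 17.1, 15.2 and 23.2 in treated WT, 5.42, 4.35 and 2.58 in *linc1-1* mock and 6.15, 6.24 and 6.78 in treated *linc1-1*. The treated WT libraries were the highest by a wide margin, and the difference was −0.86 (SE 0.34, unadjusted p = 0.0287). Its relative *PUB22* had −0.74 (SE 0.35) and *WRKY40* had −0.94 (SE 0.49). The flagellin receptor gene *FLS2* had −0.034 (SE 0.37, 95% interval −0.85 to 0.79), and the receptor kinase gene *BAK1* 0.035.

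ET genes had a difference below 0 in 19 of 23 cases, with a median of −0.13. *ACS7* was the only member at unadjusted p, where 0.612% of all tested genes were smaller. The median stayed below 0 in all 24 alternatives, from −0.26 with size factors to −0.0031 without WT mock replicate 1. All 7 tested SA synthesis and signaling genes were below 0. Their median was −0.084, −0.22 with size factors, and −0.39 and −0.018 without replicates 2 and 3 of WT *Pst hrcC*-, and the lowest member was *SAG101* (−0.59, SE 0.35), whose product is a partner of EDS1.

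SA output genes had a median of −0.74, with 6 of 7 below 0, but this median was 0.036 without both WT replicate 1 libraries and −0.065 without WT *Pst hrcC*- replicate 1 alone. It was −1.12 without *linc1-1* mock replicate 3. *PR1*, the standard marker of SA, was at 98.2, 0 and 7.59 FPKM in treated WT and at 0.134, 0 and 0.108 in treated *linc1-1*. In mock it was at 0, 17.3 and 4.43 FPKM in WT and at 0, 0.319 and 0 in *linc1-1*. A single treated WT library held most of its signal, and the difference of −1.06 (SE 1.95) was smaller than its error and 1.74 without both WT replicate 1 libraries. *PR2* had −0.97 (SE 0.91) and 0.036 without them. *NIMIN2*, whose product binds NPR1, had −0.93 (SE 0.39, unadjusted p = 0.0358) and −0.87 without them.

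**Figure D4:**
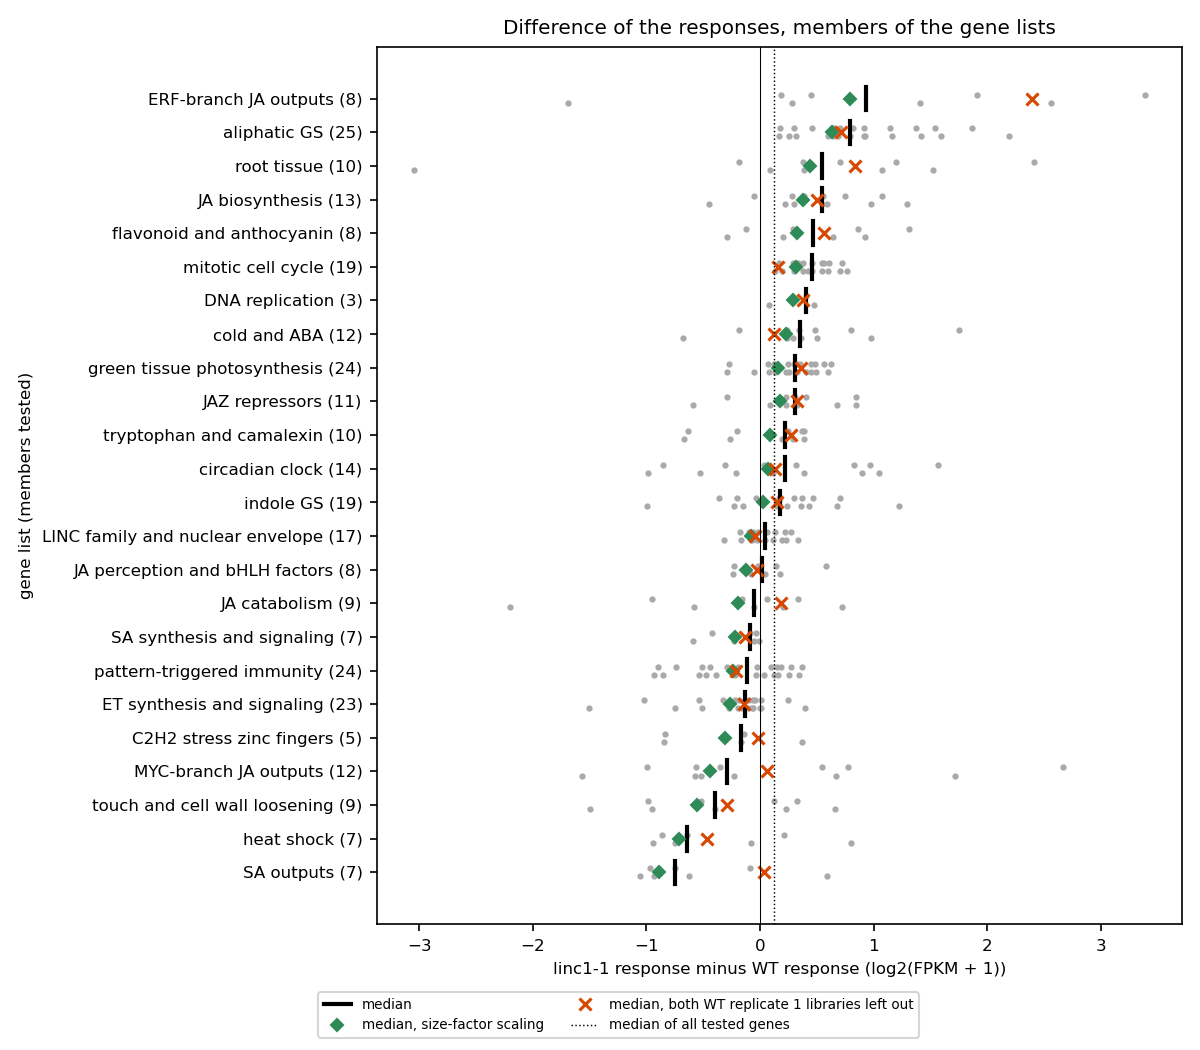
Difference of the responses of each tested member (grey points) in 24 gene lists ordered by their median (black bar), in log2(FPKM + 1), with the number of members tested. Diamonds give the median with size factors, crosses the median without both WT replicate 1 libraries, and the dotted line the median of all tested genes at 0.12. With size factors the median of all tested genes was −0.0060, and the diamonds are to be read against that value. The cross of SA outputs lies at 0.036 and that of the ERF branch at 2.39, far from their bars at −0.74 and 0.93.

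All 19 tested mitotic genes had a difference above 0 and above the median of all genes, with a median of 0.45, and none passed at unadjusted p. Their median response was −0.47 in WT and −0.0082 in *linc1-1*. *AUR1*, an Aurora kinase gene, had the smallest p (0.71, SE 0.39). The mean level of the list was 2.88 in WT mock replicate 1 and 1.79 and 1.72 in the other WT mock libraries. The median difference was 0.12 without replicate 1 of WT mock and 0.66 without its replicate 3. The 3 tested DNA replication genes had a median of 0.41, and *PCNA2* had 0.48 (SE 0.26). Their median was −0.13 and 0.63 without replicates 1 and 3 of WT mock.

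In the heat shock list, 5 of 7 genes were below 0 (median −0.65), with 2 smaller at unadjusted p, against 0.612% of all tested genes. The median was −0.17 when replicate 2 of treated WT was left out and −0.29 when its replicate 1 was. It was −0.94 with quantile normalization. The chaperone gene *HSP90.1* was at 1.07, 1.16 and 0.570 FPKM in WT mock, 1.91, 1.68 and 1.66 in treated WT, 1.38, 1.04 and 0.930 in *linc1-1* mock and 0.641, 0.600 and 0.745 in treated *linc1-1*. The treated WT libraries were the highest, the responses of the lines did not overlap, and the difference was −0.87 (SE 0.23, unadjusted p = 0.00341). The coactivator gene *MBF1C* had −0.95 (SE 0.33).

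Clock genes had a median of 0.22, with 9 of 14 above 0, and wide errors (median SE 0.82). The median was 0.067 with size factors and 0.48 without WT *Pst hrcC*- replicate 2. *GI*, an evening gene, was at 16.7 FPKM in WT mock replicate 1 and 6.24 and 6.93 in the other WT mock libraries, and at 2.202, 4.20 and 5.11 in treated WT. In *linc1-1* it was at 4.94 to 6.52 FPKM in mock and 5.12 to 5.98 after *Pst hrcC*-. The spread lay in WT, and the difference of 1.05 (SE 0.46) was 0.37 without both WT replicate 1 libraries. The morning gene *CCA1* was at 18.6 FPKM in WT *Pst hrcC*- replicate 1 and at 0.0940 to 2.08 in the other 11 libraries. The part of the clock in the other results was not tested.

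Of 10 starch breakdown genes looked up after values were seen, 8 were above 0, against 67.1% of all tested genes. *PHS1* and *DPE1* were larger at unadjusted p, against 1.38% of all tested genes. Both had already been named for the size of their difference, so these counts follow in part from that choice. *PHS1*, a plastid phosphorylase gene, was at 33.8, 10.4 and 11.5 FPKM in WT mock and 4.72, 9.16 and 8.32 in treated WT, and at 11.7 to 16.6 in *linc1-1* mock and 14.2 to 23.0 after *Pst hrcC*-. WT mock replicate 1 was the highest library and treated WT replicate 1 the lowest. The differences of *PHS1* and of *DPE1*, a glucanotransferase gene, were 1.31 (SE 0.56) and 1.22 (SE 0.55), and 0.54 and 0.58 without both WT replicate 1 libraries.

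The seedlings held both green and root tissue by their markers. The median difference of 24 photosynthesis genes was 0.31, with 21 above 0. It was 0.16 with size factors and −0.22 without WT mock replicate 1. When replicates 3 and 1 of treated WT were left out it was −0.12 and 0.70. Of 10 root genes, 8 were above 0 (median 0.55, and 0.18 and 0.87 without replicates 3 and 2 of *linc1-1* mock). *PRP3*, a root hair cell wall gene, had 2.41 (SE 1.05) and the iron transporter gene *IRT1* −3.05 (SE 1.97). *AGP3*, an arabinogalactan protein gene, had a difference of 2.74 (SE 1.01), at 17.5, 27.6 and 7.03 FPKM in WT mock, 7.78, 1.13 and 16.8 in treated WT, 3.47, 7.68 and 2.67 in *linc1-1* mock and 14.5, 21.3 and 8.54 in treated *linc1-1*. It was lower in treated than mock WT in the means, with overlapping groups, and higher in treated *linc1-1*, where the groups did not overlap. Whether the share of root in a library bears on these genes was not tested, and fewer cells of a type cannot be told from less RNA per cell in whole seedlings.

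The cytochrome P450 gene *CYP705A5*, of the root thalianol pathway, had a difference of 1.98 (SE 0.70) from 5.53, 7.64 and 1.92 FPKM in *linc1-1* mock to 31.3, 38.8 and 27.3 after *Pst hrcC*-. In WT it was at 16.9, 32.7 and 11.6 FPKM in mock and 32.2, 15.2 and 49.0 after *Pst hrcC*-. The *linc1-1* mock libraries were the lowest and the treated groups overlapped. The 3 other genes of this cluster on chromosome 5 were looked up after these values were seen. *THAS1*, *CYP708A2* and AT5G47980 differed by 1.65 (SE 0.55), 1.43 (SE 0.41) and 1.203 (SE 0.64).

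The 17 tested genes of the LINC family and nuclear envelope had a median of 0.047 (−0.078 with size factors). The 95% interval of all 17 lay within 2-fold either way, against 49.7% of all genes. The disrupted *LINC1* is of this family, at 2.09 to 3.76 FPKM in *linc1-1*, where the log2(FPKM + 1) scale understates folds. Its interval of −0.35 to 0.91 therefore does not show an equal response. *LINC2*, *LINC3* and *LINC4* differed by 0.058, −0.023 and 0.11. *KAKU4*, whose product binds LINC1, had −0.067, the SUN-domain gene *SUN1* −0.10, and *NTL9*, a membrane-tethered NAC factor gene, had the smallest p with 0.34 (SE 0.24).

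The remaining lists were small or mixed. The touch list had a median of −0.40 (4 of 9 above 0), and 0.0069 without WT *Pst hrcC*- replicate 2. It was −0.935 without WT *Pst hrcC*- replicate 1 and −0.91 without *linc1-1* mock replicate 3. The cold and ABA list had 0.35 (10 of 12 above 0), 0.23 with size factors, and 0.16 and 0.65 without WT mock replicates 1 and 3. Its member *HAB1*, a phosphatase gene of ABA signaling, had −0.67 (SE 0.34). The zinc finger list had −0.17 (1 of 5 above 0), with *ZAT12* at −0.84 (SE 0.54). This median was −0.31 with size factors, and its sign changed in 3 of 24 alternatives, with 0.070 without WT mock replicate 1 and 0.060 without *linc1-1* mock replicate 1. It was −0.59 without *linc1-1* mock replicate 3. The flavonoid list had 0.47 (6 of 8 above 0), with *UGT75C1* at 0.64 (SE 0.57). Its median was −0.19 without WT mock replicate 1, and −0.017 and 1.21 when replicates 2 and 1 of treated WT were left out. The tryptophan and camalexin list had 0.22 (6 of 10 above 0), with *GSTU4* at −0.67 (SE 0.45). Its median was 0.086 with size factors, and −0.041 and 0.33 without replicates 2 and 1 of WT *Pst hrcC*-.

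By gene family, CRK receptor kinases were below 0 in 15 of 17 cases (median −0.27), and WRKY factors in 27 of 41 (median −0.18). The median of auxin-responsive *SAUR* genes was −0.65 over 13 genes (median SE 0.75), and that of histone genes −0.14 over 40. Other families lay on either side of 0. *PDF* genes had 1.53 over 8 (median SE 1.41) and *XTH* genes 0.24 over 22. *EXPA* genes had 0.20 over 16, aquaporin genes 0.16 over 22 and *ERF* genes −0.19 over 29. No alternatives are given for the family medians. Cytosolic ribosomal protein genes had 0.11 over 276, close to the 0.12 of all genes.

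**Figure D5:**
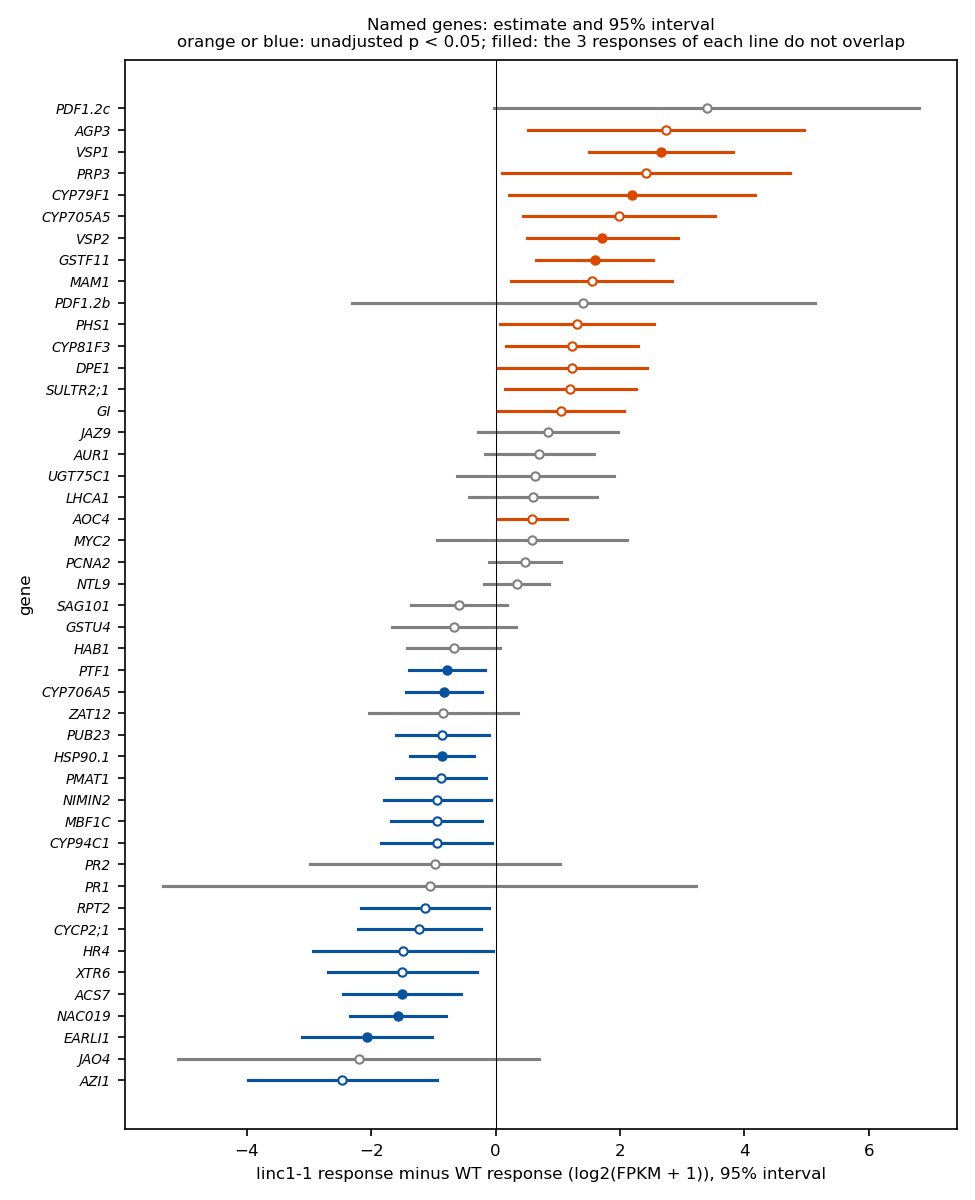
Difference of the responses with its 95% interval for 46 named genes, in log2(FPKM + 1). Orange and blue mark an unadjusted p under 0.05 for a larger or smaller response in *linc1-1*, and filled points mark responses that did not overlap between the lines. The interval of *VSP1* runs from 1.51 to 3.82 and that of *PR1* from −5.34 to 3.23.

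Genes that were called in the response of a line give another view of the difference. The response was called higher in 30 genes in WT (0.18% of those tested) and in 101 in *linc1-1* (0.606%), and 26 were called in both. The 4 called in WT alone were *NAC019*, *CYP94C1*, *NRT1.8* and AT2G45360, and their differences were −1.57, −0.95, −1.65 and −0.95. All 75 called in *linc1-1* alone had a difference above 0, with a median of 0.82, of which 31 were larger at unadjusted p. Since both sets were chosen from values that enter the difference, these signs follow in part from the choice. Among the 26 called in both lines, 19 were above 0 (median 0.29), and the 95% interval lay within 2-fold for 3 and within 4-fold for 18. A call in 1 line alone was thus not accompanied by a called difference between the lines in any gene.

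The genes measured by qRT-PCR were chosen with these samples in view, so they are no independent evidence of direction. Of 39 such genes 33 were tested here. Of these, 19 were above 0 (median 0.22), with 3 larger (*VSP1*, *VSP2* and *CYP79F1*) and 1 smaller (*CYP94C1*) at unadjusted p. Over all tested genes the shares were 1.38% larger and 0.612% smaller.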

How the data were processed

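RNA of whole seedlings was sequenced in 12 libraries, 3 in each of 4 groups. The authors mapped paired reads to TAIR10 with TopHat2 (version 2.1.1 per the labels) and deposited FPKM values from Cufflinks (version 2.2.1) in 2 tables, 1 per line. The tables hold no counts, and FPKM cannot give the depth, so no count model was fitted. The difference of the responses subtracts mock within each table. Whether the 2 tables were made separately is not known from their headers. Genes averaging 1 FPKM or more were put on the log2(FPKM + 1) scale, which understates folds of low genes, and fitted with limma 3.58.1 in R 4.3.3, with 4 group means and a variance trend. P-values were adjusted by Benjamini-Hochberg over 16677 genes, and tests were two-sided. Symbols and positions came from TAIR10.1 (RefSeq), which held 97.6% of the IDs. The fit was also run on simulated data with noise drawn independently for each gene and library, so deviations shared within a library were not covered.

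The members, the 24 gene lists and the rules were chosen with earlier results of these data known. Named genes were the 3 checks, the 10 with the largest difference in each direction at unadjusted p with a mean of at least 5 FPKM and a symbol, at most 3 members at unadjusted p of each list (or the member with the smallest p), 8 genes of the study's qRT-PCR, and the smallest p in each direction. Other genes were named after their values were seen. Alternatives were other pseudocounts, FPKM minimums, scalings and variance models, a replicate block, and libraries left out.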

Additional observations from a re-analysis of the deposited data

How the results depend on the processing

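No gene was called, except with no minimum FPKM (1 larger, *AAE12*, and 1 smaller, AT5G52770, both low in every library) and with single libraries left out, where calls ranged from 0 to 2 larger and from 0 to 1 smaller. The calls were AT3G27027 and AT5G65609 without WT *Pst hrcC*- replicate 2, AT1G08005 without *linc1-1* mock replicate 1, and AT3G25014 and *JAO4* without *linc1-1* *Pst hrcC*- replicate 3. For each of these genes the library left out was the one that stood apart from the rest of its group. The adjusted p does not account for the number of such fits. At unadjusted p, larger and smaller counts were 96 and 47 with a pseudocount of 5 FPKM, 86 and 34 with a mean of at least 5 FPKM, 127 and 187 with size factors, 120 and 215 with quantile normalization and 354 and 240 with library weights. Smaller genes numbered 177 without both WT replicate 1 libraries. With single libraries left out, the count of larger genes ran from 104 (without *linc1-1* *Pst hrcC*- replicate 2) to 475 (without WT *Pst hrcC*- replicate 1), and of smaller genes from 56 (without *linc1-1* mock replicate 2) to 214 (without *linc1-1* mock replicate 3). The median over all genes was −0.0060 with size factors and −0.0082 with quantile normalization. In fits chosen after seeing the data, size factors without both WT replicate 1 libraries gave 279 larger and 288 smaller genes and a median of −0.0032, and leaving out all 4 replicate 1 libraries gave 311 and 108. The cause of these shifts was not tested. Of 1164 values of single genes under alternatives, 13 in 6 genes reversed, each with an adjusted p near 1. *PR1* was 1.42 with library weights, 0.049 and 0.64 without replicate 1 of WT mock and of WT *Pst hrcC*-, 1.74 without both, 1.64 without all 4 replicate 1 libraries and 1.79 with size factors without both. *PR2* was 0.036 without both and 0.030 with size factors as well. *ACT2* was 0.082 without WT mock replicate 1 and 0.020 without all 4, where *GSTU4* was 0.0012. *LHCA1* was −0.033 with quantile normalization, and *LINC1* was −0.0057 with size factors without both. With any 1 library left out, *PR1* ran from −2.68 to 0.64 and *ACT2* from −0.28 to 0.082.

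With a replicate block, 253 genes were larger and 109 smaller at unadjusted p, and none was called. Whether the replicate numbers pair the libraries is not settled by the correlations of their deviations. Of 18 same-number correlations, 4 were above 0.1 (−0.21 to 0.45, against −0.42 to 0.35 for different numbers). The highest of all, 0.45, was between WT mock replicate 1 and WT *Pst hrcC*- replicate 1. The median SE was 0.32 with the block and 0.34 without it. The unknown depth limits what low values can show.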

Other observations

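The largest fitted differences over all genes belonged mostly to short transcripts whose FPKM jumped between 0 and very high values within a group, and none passed at adjusted p. ATCG00560, a chloroplast-encoded gene, had the largest, 15.1, with 13243, 0 and 37771 FPKM in WT mock and 0 in every treated WT library, and with 22366, 0 and 8439 in *linc1-1* mock and 23290, 54807 and 12234 in treated *linc1-1*. AT3G27027, with a difference of 4.39, was at 10.9 to 16.8 FPKM in WT mock, 0, 6.11 and 0 in treated WT, 5.58 to 10.3 in *linc1-1* mock and 19.2 to 34.3 in treated *linc1-1*. It was chosen after its values were seen.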
